A study of Mus musculus with 228 samples.

Results

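Jejunum epithelium of mice kept under long days, LD16/8 (16 h of light and 8 h of dark), was compared with that of mice kept under short days, LD8/16 (8 h of light and 16 h of dark). The libraries were chosen by their labelled tissue, diet and cycle: 3 jejunum libraries at LD16/8 and 3 at LD8/16, 6 of the 228 libraries of the series. All came from C57BL/6N mice aged 10 weeks at the start, housed singly, given a chow diet and sterilised water without antibiotics, and held under their cycle for 42 days. Per the labels, 24 mice made up each diet and cycle, but libraries are not tied to mice and the hours of sampling are not given in the sources used here. The spread between libraries was estimated together with 3 jejunum libraries each from constant darkness (LD0/24, 0 h of light) and constant light (LD24/0, 24 h of light) on the same chow, while the LD12/12 jejunum libraries entered only an alternative fit. Ileum epithelium from the same 4 chow groups, with 3 libraries each, served for comparison.

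The jejunum is the stretch of small bowel that follows the duodenum. Its absorptive cells, the enterocytes, finish the digestion of sugars and peptides, rebuild fat into chylomicrons and meet drugs and plant compounds first, while goblet, Paneth and tuft cells supply mucus, antimicrobial proteins and sensing of parasites. Along the length of the bowel these programmes form gradients, and across the day many of them follow the circadian clock and the feeding rhythm, in which the activators ARNTL and CLOCK drive the Per, Cry, Nr1d and PAR bZIP genes that then repress or relay the cycle.

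The 6 libraries held 149922890, 88278307 and 104542821 counts under LD16/8 and 122509153, 89738121 and 86238027 counts under LD8/16, and the 12 jejunum libraries of the fit ran from 86238027 to 153570031 counts. Values below are in CPM, counts scaled to a library of 1000000 after TMM normalisation, which do not correct for gene length, so levels are compared between libraries and not between genes. Enterocyte genes such as Vil1 (1388 to 2651 CPM) and the proximal factor Gata4 (117 ± 10.4 CPM under LD16/8 and 115 ± 12.8 CPM under LD8/16, SD, n = 3 each) were present in all 6 libraries, while the ileal gene Fabp6 reached at most 0.72 CPM, as the label jejunum would have it. Mitochondrially encoded RNA took 27.6, 37.7 and 6.37% of counts under LD16/8 and 9.33, 26.0 and 23.2% under LD8/16. Genes with at least 1 count numbered 22797, 21882 and 20434 under LD16/8 and 23071, 17303 and 20777 under LD8/16. LD8/16 replicate 2 thus had the fewest of the 12 jejunum libraries, which reached up to 24623. LD8/16 replicate 3 held B cell genes at a summed 706 CPM, against 0.924 to 71.0 CPM in the other 5 libraries. LD0/24 replicates 1 and 2 differed 23.3 times more than counting noise alone gives, against at least 267 times for every other pair, so they were kept as 2 libraries and also tried as 1. Whether each library is a separate mouse is not stated, so the p-values rest on variation among libraries that may be partly technical.

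Under LD16/8, 5 genes rose and 0 fell at an adjusted p under 0.05 (edgeR quasi-likelihood test, Benjamini-Hochberg over 20339 genes), which is 0.0246% of genes called higher and 0% called lower. The 5 were Bbox1, Nat8f2, Dgat2, Aldoc and Dnah2, and all had an adjusted p of 0.0487. Without adjustment, 913 genes were higher (4.49%) and 741 lower (3.64%) at a p under 0.05, together 8.13%. All 3 LD16/8 libraries lay above all 3 LD8/16 libraries for 1253 genes (6.16%) and below them for 840 (4.13%), and the median log2 fold change of all genes was −0.07. DESeq2 called 135 genes higher and 34 lower. The edgeR calls were borderline: they fell to 0 when any 1 of 10 of the 12 libraries was left out, numbered 10 without LD0/24 replicate 3 and 11 without LD24/0 replicate 3, and were 0 with LD0/24 replicates 1 and 2 averaged as 1 library, with the mitochondrial share as a covariate and with the older quasi-likelihood fit. Limma-voom called 4 genes higher, with Aldoc, Dgat2 and Dnah2 among them, and gave Bbox1 and Nat8f2 an adjusted p of 0.204 each. In simulated jejunum libraries with 100 genes changed by 2-fold and 100 by 4-fold, 3 and 37 were called, so most changes of these sizes were missed.

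The 5 genes that rose act in carnitine and triglyceride synthesis, acetyl transfer, sugar breakdown and ciliary movement. Bbox1, which makes carnitine in the last step of its synthesis, stood at 50.7, 47.4 and 20.4 CPM under LD16/8 and 1.76, 1.68 and 1.16 CPM under LD8/16, a log2 fold change of 4.68 ± 0.67 (SE). Dgat2, which adds the last fatty acid to triglyceride, stood at 955, 729 and 848 CPM under LD16/8 and 249, 107 and 148 CPM under LD8/16 (2.33 ± 0.33). Nat8f2, a member of the N-acetyltransferase family related to NAT8, stood at 24.2, 17.7 and 8.81 CPM under LD16/8 and 1.39, 0.645 and 0.419 CPM under LD8/16 (4.31 ± 0.60). In each of these genes the lowest LD16/8 library was well above the highest LD8/16 library, and for Bbox1 and Nat8f2 LD16/8 replicate 3 was the lowest of its group. Aldoc, an aldolase of sugar breakdown, stood at 17.5, 21.1 and 14.3 CPM under LD16/8 and 4.31, 3.69 and 3.58 CPM under LD8/16 (2.19 ± 0.30). Dnah2, a heavy chain of the dynein that moves cilia, stood at 64.7, 65.6 and 56.5 CPM under LD16/8 and 10.54, 21.1 and 13.5 CPM under LD8/16 (2.05 ± 0.29). Both kept narrow ranges within LD16/8, and the groups did not overlap.

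**Figure D1:**
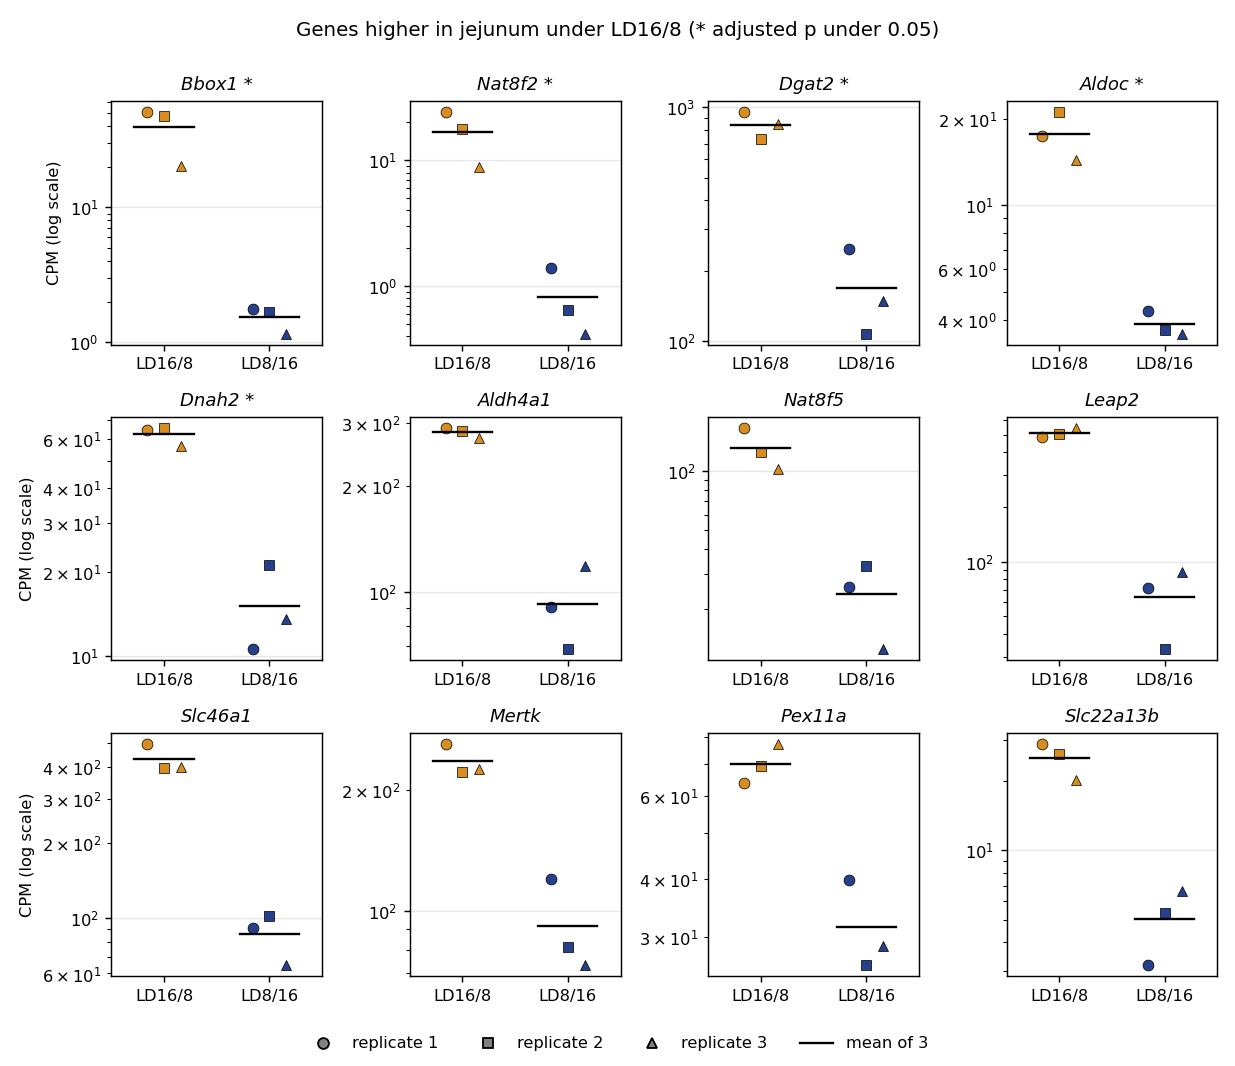
CPM on a log axis for the 12 genes named as higher in jejunum under LD16/8, with LD16/8 left and LD8/16 right, 1 symbol per replicate and a line at the mean of 3 libraries. The 5 genes with an asterisk, Bbox1, Nat8f2, Dgat2, Aldoc and Dnah2, had an adjusted p of 0.0487, and in all 12 genes the 3 LD16/8 libraries lie above the 3 LD8/16 libraries.

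The 7 genes next in order of p did not pass, though DESeq2 called all 7. Aldh4a1, a mitochondrial enzyme of proline breakdown, stood at 291, 285 and 273 CPM under LD16/8 and 90.7, 68.7 and 118 CPM under LD8/16 (1.61 ± 0.24, adjusted p = 0.0572 with edgeR). Nat8f5, a second acetyltransferase of the Nat8 family, stood at 165, 125 and 102 CPM under LD16/8 and 25.6, 33.1 and 12.5 CPM under LD8/16 (2.46 ± 0.37, adjusted p = 0.0585). Leap2, a peptide of liver and small bowel that blocks the ghrelin receptor, stood at 485, 502 and 545 CPM under LD16/8 and 71.4, 32.9 and 87.6 CPM under LD8/16 (3.00 ± 0.48, adjusted p = 0.0889). Leap2 thus differed about as much as the genes that passed, with all LD16/8 libraries close to each other. Slc46a1, the proton-coupled folate transporter that takes up dietary folate, stood at 497, 396 and 399.9 CPM under LD16/8 and 91.4, 102 and 64.8 CPM under LD8/16 (2.33 ± 0.42, adjusted p = 0.211). Mertk, a receptor for the clearance of dying cells, Pex11a, which helps peroxisomes divide, and Slc22a13b, of a family of organic ion transporters, had log2 fold changes of 1.37 ± 0.25, 1.15 ± 0.21 and 2.31 ± 0.43, each with an adjusted p of 0.211.

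Nat8f2 and Nat8f5 are paralogs, and reads of near-identical copies may have been split between them by the counting, so each value is uncertain by that much. The 250 bases before the start of each gene, from RefSeq (GRCm38.p6, minus strand for both), are shown because the pair moved together. Their longest identical stretch, 13 bases, is in capitals.
Nat8f2, chr6:85869138-85869387: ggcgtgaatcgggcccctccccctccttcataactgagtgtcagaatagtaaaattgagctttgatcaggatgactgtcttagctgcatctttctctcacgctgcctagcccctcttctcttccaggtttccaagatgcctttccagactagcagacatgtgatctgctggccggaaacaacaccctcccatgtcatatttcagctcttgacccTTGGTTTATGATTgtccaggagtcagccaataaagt
Nat8f5, chr6:85820973-85821222: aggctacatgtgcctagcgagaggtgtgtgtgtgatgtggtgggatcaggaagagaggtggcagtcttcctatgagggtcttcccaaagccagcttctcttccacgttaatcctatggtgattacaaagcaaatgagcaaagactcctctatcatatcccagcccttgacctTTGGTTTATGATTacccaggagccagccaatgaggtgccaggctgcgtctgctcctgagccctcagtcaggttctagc
The E-box CACGTG and the D-box letters TTATGTAA or TTACGTAA, both binding words of clock factors, were searched on both strands of the same 250-base window. Of the 12 genes named as higher, 9 had a window in the RefSeq table, and 0 of the 9 held an E-box or a D-box, against 6.02% and 0.931% of all 32851 windows. No match says only that these letters are not in this window.

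Genes of drug and xenobiotic metabolism lay higher under LD16/8 as a group, although 0 of 30 members passed over all genes. Of the 30, 13 had an unadjusted p under 0.05 in the higher direction and 0 in the lower, and 18 had all LD16/8 libraries above all LD8/16 libraries, against 4.49% and 6.16% of all genes. The median log2 fold change of the list was 1.18. Nr1i3, the receptor CAR that turns on detoxifying enzymes, stood at 52.6, 60.3 and 78.3 CPM under LD16/8 and 27.5, 22.3 and 27.8 CPM under LD8/16 (1.3003 ± 0.28, adjusted p = 0.263 with edgeR). Cyp2b10, its classic target in mouse liver, stood at 674, 542 and 539 CPM under LD16/8 and 196, 87.1 and 100.3 CPM under LD8/16 (2.19 ± 0.52, adjusted p = 0.278). Gsta1, a glutathione transferase, stood at 630.4, 408 and 430.4 CPM under LD16/8 and 195, 57.1 and 41.5 CPM under LD8/16 (2.32 ± 0.63, adjusted p = 0.365). In each of the 3 the groups did not overlap, and LD8/16 replicate 1 was the highest or second highest of its group. Cyp3a13, among the most abundant of the list, stood at 1668, 1810.2 and 2173 CPM under LD16/8 and 812, 1139.9 and 894 CPM under LD8/16 (0.99 ± 0.36, adjusted p = 0.502). Cyp4f14, of a family that oxidises fatty acids, overlapped between the groups at 1350.2, 1405 and 2108 CPM under LD16/8 and 1403, 1273 and 1297 CPM under LD8/16 (0.29 ± 0.34, adjusted p = 0.86). The other non-overlapping members included the receptor PXR gene Nr1i2 and the enzymes Cyp2c29, Cyp2c66, Cyp3a11, Cyp3a25, Cyp1a1, Ces2a and Gsta4. Members of the Cyp2c, Cyp3a, Ces2 and Gsta families are close paralogs, so their reads may be shared. Of the 30 members, 6 were also more abundant in jejunum than in ileum at LD0/24 and LD24/0, against 4.94% of all genes.

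**Figure D2:**
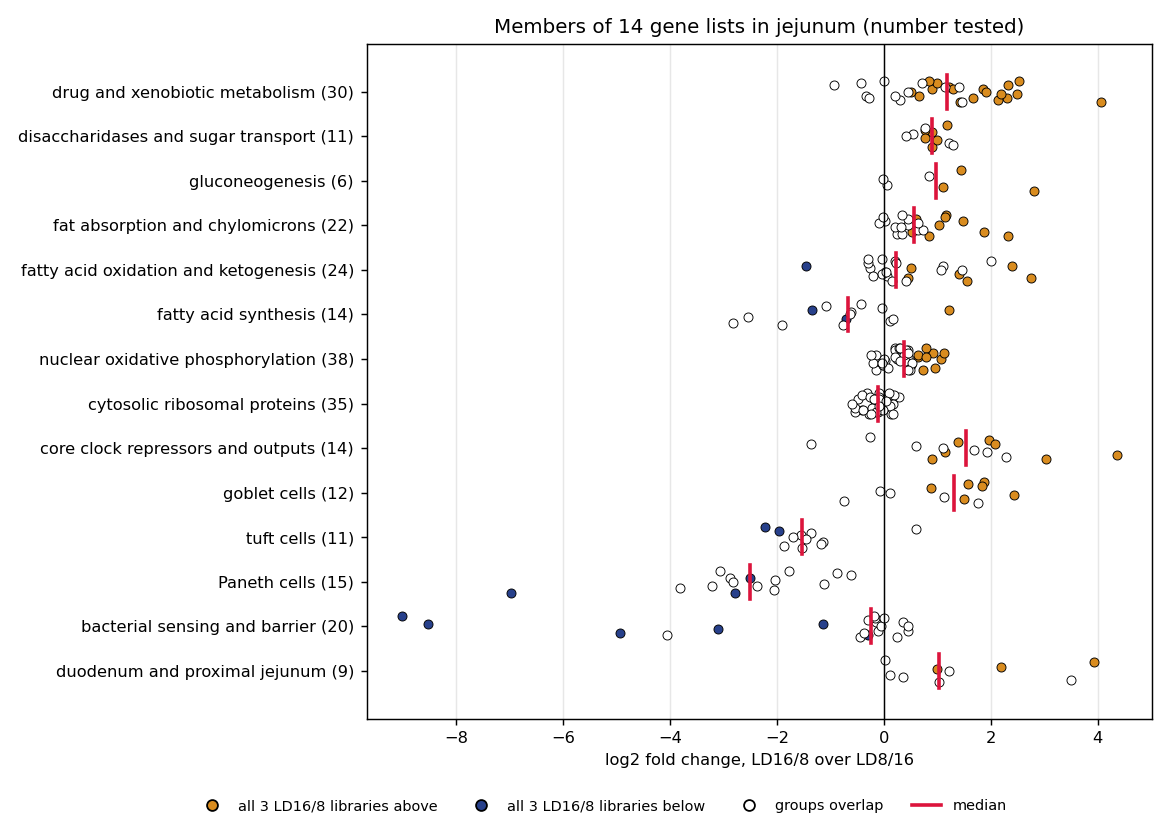
Log2 fold change of LD16/8 over LD8/16 in jejunum for each tested member of 14 gene lists, with filled points where the groups of 3 libraries do not overlap and a red line at the list median. Drug metabolism (median 1.18), disaccharidases (0.90), clock repressors and outputs (1.53) and goblet cells (1.31) lie right of 0, Paneth (−2.51) and tuft cells (−1.54) left of it, and ribosomal proteins near 0 (−0.11). Retnlb of the goblet list, at 0 in all LD16/8 libraries, is counted in the median but not drawn.

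Among genes of fat absorption and chylomicrons, Dgat2 was the 1 of 22 that passed, and 9 of 22 members had all LD16/8 libraries above all LD8/16 libraries, against 6.16% of all genes (median 0.56). Apoc2, the cofactor of lipoprotein lipase, stood at 1634, 1784 and 2268 CPM under LD16/8 and 357, 706 and 489.8 CPM under LD8/16 (1.87 ± 0.42, adjusted p = 0.278 with edgeR). Fabp1, which carries fatty acids in the cytosol, stood at 2938, 2358 and 2349 CPM under LD16/8 and 1385, 833 and 529 CPM under LD8/16 (1.48 ± 0.37, adjusted p = 0.318). Apoa4, a protein of chylomicrons, stood at 18727, 21757 and 34232 CPM under LD16/8 and 10953, 12715 and 9549 CPM under LD8/16 (1.17 ± 0.66, adjusted p = 0.676). These 3 did not overlap, but the other abundant apolipoprotein, Apoa1, did, at 9863, 10100.0 and 26562 CPM under LD16/8 and 12633, 7497 and 9674 CPM under LD8/16 (0.64 ± 0.62, adjusted p = 0.831). In LD16/8 the high values of Apoa1 and Apoa4 came from replicate 3. Genes of fatty acid synthesis had a median of −0.67, with 1 of 14 all above and 2 all below, against 6.16% and 4.13% of all genes. Acacb, an acetyl-CoA carboxylase that restrains fat burning, was all below, at 1.56, 1.07 and 0.899 CPM under LD16/8 and 2.89, 3.69 and 2.44 CPM under LD8/16 (−1.34 ± 0.50, adjusted p = 0.513), while Srebf1, a regulator of lipid synthesis, was all above at 140.4, 126 and 442 CPM under LD16/8 and 121, 74.5 and 109 CPM under LD8/16 (1.21 ± 0.60, adjusted p = 0.646). Of the fatty acid oxidation genes, 6 of 24 were all above and 1 all below, beside the same 6.16% and 4.13%. They included Pdk4, which spares glucose from oxidation, at 80.8, 62.1 and 115 CPM under LD16/8 and 20.2, 7.43 and 10.8 CPM under LD8/16 (2.75 ± 1.04, adjusted p = 0.522), and Acadl, a dehydrogenase of long-chain fatty acids, at 129, 131 and 97.7 CPM under LD16/8 and 36.8, 74.7 and 23.5 CPM under LD8/16 (1.41 ± 0.50, adjusted p = 0.501).

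Sugar handling showed the same direction without a call. Of 11 genes for disaccharidases and sugar transport, 0 passed, 6 were all above and 0 all below, against 6.16% and 4.13% of all genes (median 0.90). Khk, the first enzyme of fructose use, stood at 723, 672 and 1049.9 CPM under LD16/8 and 454, 402 and 455 CPM under LD8/16 (0.90 ± 0.32, adjusted p = 0.501 with edgeR). Mgam, which cuts starch fragments, stood at 3565, 2671 and 1943 CPM under LD16/8 and 1712, 918 and 992 CPM under LD8/16 (1.18 ± 0.45, adjusted p = 0.521). These 2 steps did not overlap, whereas Slc5a1, the sodium-coupled glucose transporter, did, at 3411, 2870.5 and 1735 CPM under LD16/8 and 1534, 3451 and 1069 CPM under LD8/16 (0.40 ± 0.57, adjusted p = 0.889). Among 6 genes of gluconeogenesis, 3 were all above, beside the same 6.16%. Slc37a4, the glucose 6-phosphate transporter, stood at 194, 181 and 177 CPM under LD16/8 and 73.7, 96.4 and 85.4 CPM under LD8/16 (1.11 ± 0.23, adjusted p = 0.243), and Fbp1, fructose bisphosphatase, at 55.0, 53.5 and 22.5 CPM under LD16/8 and 12.1, 2.44 and 4.08 CPM under LD8/16 (2.80 ± 0.72, adjusted p = 0.347). Pck1, which feeds this route, stood at 178, 166 and 434 CPM under LD16/8 and 145, 35.1 and 107 CPM under LD8/16 (1.43 ± 0.85, adjusted p = 0.696). Of 26 genes of glycolysis and the response to low oxygen, Aldoc was the 1 that passed. Slc16a3, the lactate exporter, stood at 124, 154.1 and 101 CPM under LD16/8 and 44.8, 71.7 and 46.2 CPM under LD8/16 (1.22 ± 0.29, adjusted p = 0.278), and Vegfa, a growth factor for vessels, at 137, 146 and 157 CPM under LD16/8 and 57.5, 57.8 and 115 CPM under LD8/16 (0.93 ± 0.28, adjusted p = 0.415). Ldha, lactate dehydrogenase, overlapped at 1679, 1589.6 and 2912 CPM under LD16/8 and 2118, 4541 and 1348 CPM under LD8/16 (−0.37 ± 0.44, adjusted p = 0.865). Nuclear genes of oxidative phosphorylation had a median of 0.38, with 10 of 38 all above, 0 all below and 0 passing, against 6.16% and 4.13% of all genes, while 0 of 35 cytosolic ribosomal protein genes and 0 of 22 cell cycle genes were separated in either direction.

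Metal and stress hormone genes were smaller groups, whose counts stand beside 6.16% all above and 4.13% all below over all genes. Mt1, a metallothionein that binds zinc and copper, stood at 123, 134 and 83.6 CPM under LD16/8 and 55.4, 36.4 and 36.0 CPM under LD8/16 (1.41 ± 0.31, adjusted p = 0.263 with edgeR), and 2 of 8 genes of its list were all above. Epas1, the low-oxygen factor that drives iron uptake in the gut, stood at 95.6, 68.4 and 64.2 CPM under LD16/8 and 25.7, 44.2 and 33.1 CPM under LD8/16 (1.15 ± 0.33, adjusted p = 0.381), with Fth1 and Ftl1, the chains of the iron store ferritin, the other 2 of 10 iron genes that were all above. Fkbp5, a gene that glucocorticoids induce, stood at 119, 65.3 and 32.7 CPM under LD16/8 and 16.4, 5.49 and 11.6 CPM under LD8/16 (2.69 ± 0.91, adjusted p = 0.493). It was highest in LD16/8 replicate 1, and 4 of 13 glucocorticoid response genes were all above and 1 all below. No member of these 3 lists passed.

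The genes named as lower included oxidases, gasdermins and an antimicrobial ribonuclease of the gut lining, which had wide gaps between the cycles and wide spread within LD8/16, and 0 passed with edgeR. Without LD24/0 replicate 3, 4 genes passed as lower: Duox2, Gsdmc2, Gsdmc3 and Gsdmc4. Duox2, the oxidase that releases hydrogen peroxide at the gut surface, stood at 1.15, 2.15 and 1.17 CPM under LD16/8 and 190.3, 1910.4 and 155 CPM under LD8/16, a log2 fold change of −9.002 ± 1.86 (adjusted p = 0.263 with edgeR). Its partner Duoxa2, which brings the oxidase to the surface, stood at 0.162, 0.541 and 0.888 CPM under LD16/8 and 44.9, 499.7 and 16.4 CPM under LD8/16 (−8.51 ± 2.16, adjusted p = 0.343). LD8/16 replicate 2 was about an order of magnitude above its 2 companions in both genes, and the LD16/8 libraries were low in both. Gsdmc2, a gasdermin that type 2 cytokines induce in the mouse gut, stood at 0.845, 2.15 and 0.910 CPM under LD16/8 and 134, 467 and 44.5 CPM under LD8/16 (−7.41 ± 1.72, adjusted p = 0.278). Its neighbours in the family, Gsdmc3 and Gsdmc4, had log2 fold changes of −9.63 ± 2.08 and −7.41 ± 1.64 (adjusted p = 0.263 and 0.278), and as close paralogs the 3 may share reads. Ang4, an antimicrobial ribonuclease of Paneth and goblet cells, stood at 0.816, 0.442 and 0.524 CPM under LD16/8 and 16.7, 206 and 6.83 CPM under LD8/16 (−6.96 ± 1.61, adjusted p = 0.278). In all of these LD8/16 replicate 2 was the highest library. Single libraries of other cycles also had high values, LD24/0 replicate 3 among them: Duox2 stood at 2.22, 18.2 and 321 CPM under LD24/0 and 120.5, 114 and 37.7 CPM under LD0/24, and Gsdmc2 at 1.65, 4.15 and 204 CPM under LD24/0 and 13.5, 13.0 and 23.7 CPM under LD0/24. Of 20 genes of bacterial sensing and barrier, 6 were all below and 0 all above (median −0.24), against 4.13% and 6.16% of all genes. Besides the Duox pair they were Fut2, which fucosylates the surface, at 0.743, 0.385 and 0.888 CPM under LD16/8 and 3.89, 57.8 and 1.49 CPM under LD8/16, Nos2, which makes nitric oxide, at 0.595, 0.698 and 0.567 CPM under LD16/8 and 9.89, 2.86 and 3.05 CPM under LD8/16, and the receptor genes Tlr2 and Nod1. The claudins Cldn7 and Cldn15, which seal cell contacts, overlapped between the groups. The list of antimicrobial genes of the lower villus went the other way, with 3 of 7 all above, 0 all below and 0 passing (median 1.17), and its summed level was 1569 to 4629 CPM under LD16/8 and 618 to 1365 CPM under LD8/16.

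**Figure D3:**
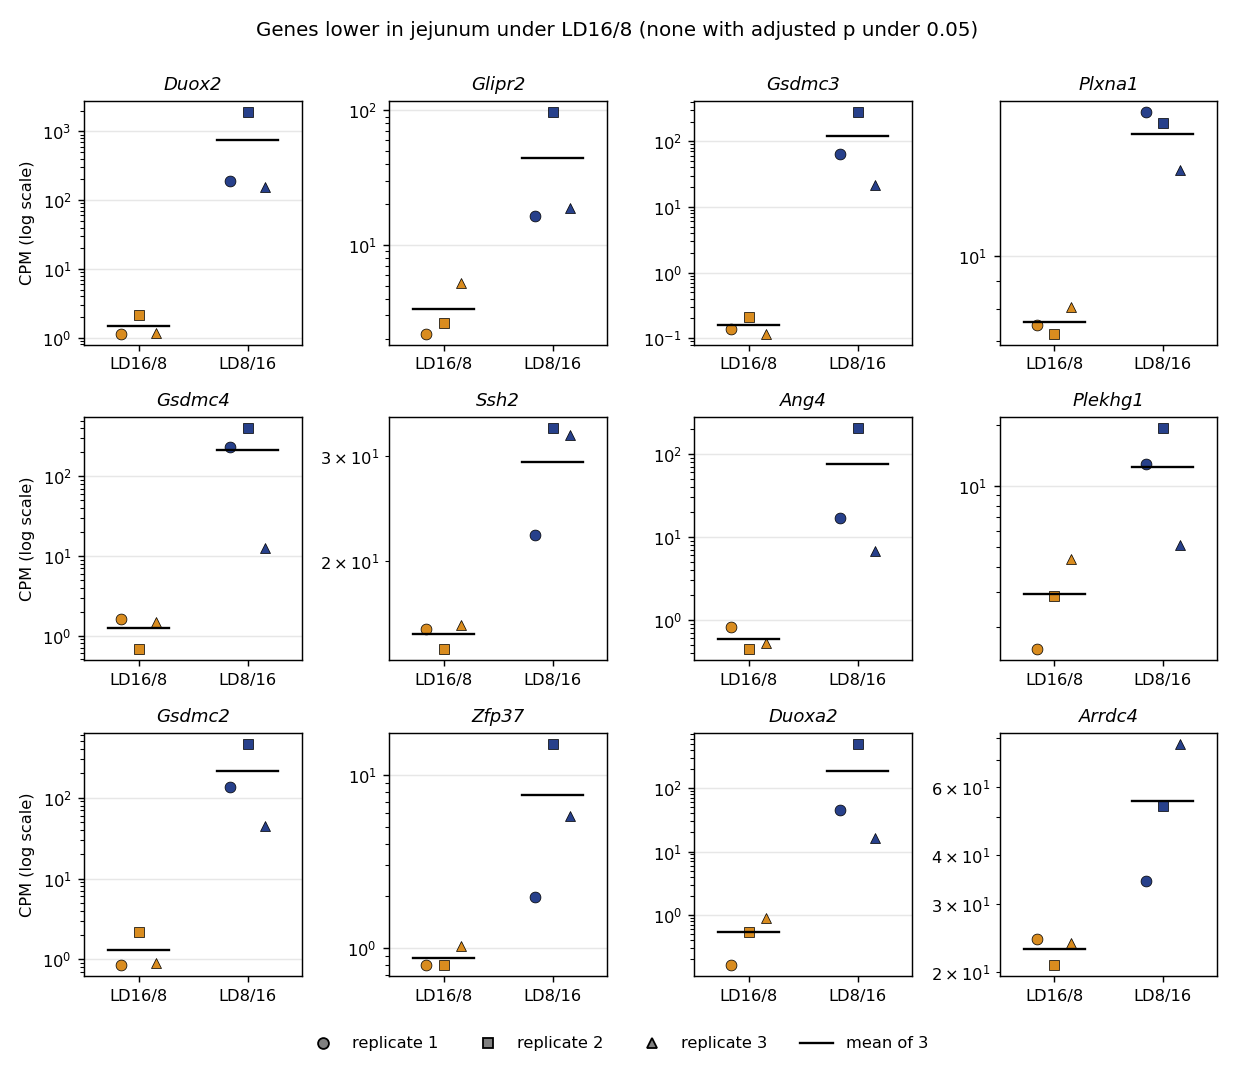
CPM on log axes for the 12 genes named as lower in jejunum under LD16/8, with LD16/8 left and LD8/16 right, 1 symbol per replicate and a line at the mean of 3 libraries. None had an adjusted p under 0.05, and for Duox2, Duoxa2, Gsdmc2, Gsdmc3, Gsdmc4, Glipr2 and Ang4 LD8/16 replicate 2 (square) is the highest library.

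The other genes named as lower had smaller differences. Plxna1, a receptor for semaphorins, stood at 7.48, 7.22 and 8.08 CPM under LD16/8 and 18.3, 17.4 and 14.3 CPM under LD8/16 (−1.14 ± 0.25, adjusted p = 0.273 with edgeR). Ssh2, a phosphatase that activates the actin cutter cofilin, stood at 15.4, 14.3 and 15.7 CPM under LD16/8 and 22.1, 33.4 and 32.4 CPM under LD8/16 (−0.95 ± 0.22, adjusted p = 0.278). Both had low spread within each cycle. Arrdc4, an arrestin-like gene that responds to glucose, stood at 24.3, 20.8 and 23.7 CPM under LD16/8 and 34.2, 53.6 and 77.3 CPM under LD8/16 (−1.26 ± 0.33, adjusted p = 0.347). Glipr2, Plekhg1 and Zfp37 had log2 fold changes of −3.72 ± 0.80, −2.09 ± 0.50 and −3.12 ± 0.75, again with LD8/16 replicate 2 highest. DESeq2 called 10 of the 12 genes named as lower. It gave Duox2 no adjusted p and did not call Arrdc4.

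The median log2 fold change was positive for goblet cell genes and negative for Paneth and tuft cell genes, with 0 members called, and most Paneth and tuft genes overlapped between the groups. In bulk samples fewer cells of a type and less RNA per cell cannot be told apart. Of 12 goblet genes, 6 were all above and 0 all below, against 6.16% and 4.13% of all genes (median 1.31). Muc2, the main gel mucin, stood at 416, 341 and 779.7 CPM under LD16/8 and 258, 59.1 and 226 CPM under LD8/16 (1.502 ± 0.57, adjusted p = 0.519 with edgeR). Tff3, a trefoil peptide of mucus, stood at 387, 296 and 1378 CPM under LD16/8 and 274, 144 and 159 CPM under LD8/16 (1.84 ± 0.66, adjusted p = 0.502), and Zg16, a mucus lectin, at 1908, 1394 and 4146 CPM under LD16/8 and 675, 26.3 and 671 CPM under LD8/16 (2.44 ± 0.98, adjusted p = 0.555). LD16/8 replicate 3 was the highest library in all 3, and the median of the goblet list was 0.67 without it. Of 15 Paneth genes, 3 were all below and 0 all above, beside the same 4.13% and 6.16% (median −2.51, and −1.37 without LD8/16 replicate 2). Lyz1, the Paneth cell lysozyme, overlapped at 59.2, 58.9 and 20.1 CPM under LD16/8 and 19.3, 89.0 and 192 CPM under LD8/16 (−1.12 ± 1.09, adjusted p = 0.832). Of 11 tuft genes, 2 were all below and 0 all above (median −1.54). Pou2f3, the factor that makes tuft cells, stood at 2.75, 1.70 and 1.34 CPM under LD16/8 and 4.41, 12.2 and 2.47 CPM under LD8/16 (−1.70 ± 0.73, adjusted p = 0.578), with LD8/16 replicate 2 again highest. B cell genes had a median of −3.31, but their groups overlapped in all 10 genes, and the highest LD8/16 values were in replicate 3, where Cd79a stood at 142 CPM. Among sums over marker lists, those of enterocytes (53163 to 93217 CPM under LD16/8 and 35041 to 43925 CPM under LD8/16) and goblet cells (3225 to 10609 CPM under LD16/8 and 715 to 2561 CPM under LD8/16) did not overlap. Those of Paneth cells (130 to 204 CPM under LD16/8 and 115 to 1168 CPM under LD8/16) and tuft cells (70.003 to 113 CPM under LD16/8 and 94.8 to 399 CPM under LD8/16) did, and LD8/16 replicate 1 had the lowest Paneth sum of the 12 libraries. Behind the enterocyte sum, 4 of 12 genes were all above and 0 all below, beside 6.16% and 4.13% of all genes (median 0.38). Most enterocyte genes thus overlapped between the groups. With 3 against 3 libraries the smallest two-sided exact permutation p is 0.1, which 9 of 27 library measures reached (0.3 after Benjamini-Hochberg adjustment).

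In the clock genes the LD16/8 libraries differed among themselves. Dbp, an output factor that peaks near the end of the light phase in mouse tissues, stood at 41.1, 41.7 and 2.78 CPM under LD16/8 and 1.37, 0.342 and 2.45 CPM under LD8/16 (4.35 ± 1.78, adjusted p = 0.561 with edgeR). Arntl, the activator that runs opposite to Dbp, stood at 9.40, 7.85 and 50.8 CPM under LD16/8 and 56.4, 60.9 and 43.8 CPM under LD8/16 (−1.24 ± 0.83, adjusted p = 0.735). LD16/8 replicates 1 and 2 thus had high Dbp with low Arntl, while LD16/8 replicate 3 and the 3 LD8/16 libraries had low Dbp with high Arntl. Nr1d2, a repressor of Arntl, followed this split at 84.9, 81.8 and 15.1 CPM under LD16/8 and 7.25, 11.9 and 18.1 CPM under LD8/16 (2.29 ± 0.93, adjusted p = 0.557), and Nfil3, a repressor of the genes that Dbp activates, ran the other way at 3.84, 3.73 and 49.2 CPM under LD16/8 and 37.996, 41.1 and 14.9 CPM under LD8/16 (−0.73 ± 1.01, adjusted p = 0.888). Of the 14 repressor and output genes, 0 passed, 9 had an unadjusted p under 0.05 in the higher direction, and 7 were all above, against 4.49% and 6.16% of all genes. The 7 were Per1, Per3, Dbp, Tef, Hlf, Bhlhe40 and Usp2 (list median 1.53). Per3, a period repressor, stood at 30.3, 26.0 and 7.35 CPM under LD16/8 and 4.49, 0.746 and 2.42 CPM under LD8/16 (3.03 ± 0.85, adjusted p = 0.368), and was the 1 clock gene that DESeq2 called. Bhlhe40, a repressor that also answers to light and feeding signals, had the least spread, at 207, 222 and 183 CPM under LD16/8 and 102, 98.9 and 126 CPM under LD8/16 (0.91 ± 0.27, adjusted p = 0.413). Per1 and Per2, the light-inducible period genes, had log2 fold changes of 1.39 ± 0.54 and 1.68 ± 0.63, Tef 2.07 ± 0.65, Hlf 1.96 ± 0.76 and Usp2, a deubiquitinase under clock control, 1.15 ± 0.39. Nr1d1 (1.105 ± 1.06), Ciart (1.93 ± 1.25), Cry2 (0.60 ± 0.51), Cry1 (−0.27 ± 0.42) and Bhlhe41 (−1.37 ± 0.93) overlapped between the groups. So did the genes of the activator list, among them Clock (−0.37 ± 0.23), Npas2 (−0.62 ± 0.76), Rora (0.16 ± 0.55) and Arntl, and the repressor Nfil3, which that list also holds. Whether sampling hours differed between libraries was not tested. Among the 5 genes that rose, Aldoc, Dgat2 and Dnah2 had LD16/8 replicate 3 nearer in CPM to replicates 1 and 2 than to the LD8/16 libraries. On a log scale this held for all 5. LD16/8 replicate 3 was still the lowest of its group for each of them but Dgat2. The part of the clock in these genes was not tested.

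**Figure D4:**
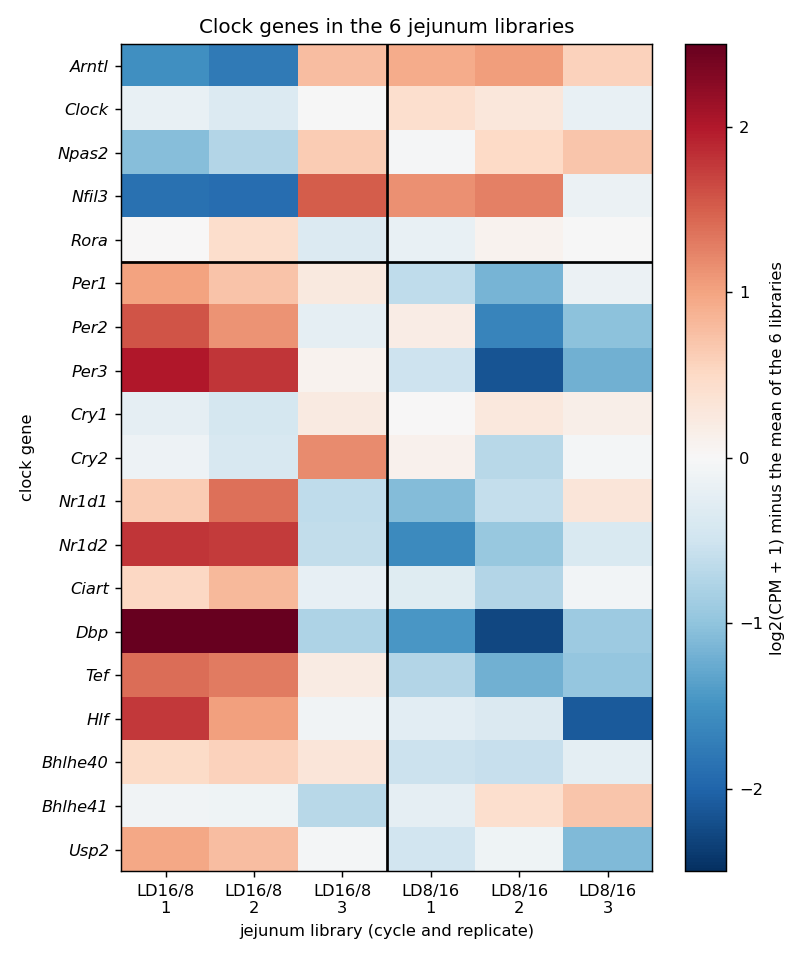
Heat map of 19 clock genes in the 6 jejunum libraries, coloured by log2(CPM + 1) minus the mean of the 6 libraries. LD16/8 is in the left columns, and the activator list, which also holds the repressor Nfil3, is above the horizontal line. LD16/8 replicates 1 and 2 are high for Dbp, Nr1d2 and Per3 and low for Arntl and Nfil3, and LD16/8 replicate 3 looks more like the LD8/16 libraries.

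Promoters of these clock genes are shown for a pair that holds more than 1 binding word. The E-box was in the 250-base window of 5 of the 12 repressor and output genes with a window in the RefSeq table (Per1, Cry1, Ciart, Tef and Bhlhe41), against 6.02% of all windows, and a D-box in 1 of 12 (Per3), against 0.931%. In Ciart, a repressor of the clock, 3 E-boxes are in capitals, starting 116, 58 and 44 bases before the gene start, and in Per3, 2 D-boxes, starting 205 and 158 bases before it (GRCm38.p6, minus strand for both).
Ciart, chr3:95882229-95882478: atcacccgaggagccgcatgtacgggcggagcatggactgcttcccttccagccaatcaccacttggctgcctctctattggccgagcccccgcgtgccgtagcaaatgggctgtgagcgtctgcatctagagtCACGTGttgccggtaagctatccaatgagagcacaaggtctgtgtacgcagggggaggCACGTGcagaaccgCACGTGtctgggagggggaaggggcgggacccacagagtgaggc
Per3, chr4:151044666-151044915: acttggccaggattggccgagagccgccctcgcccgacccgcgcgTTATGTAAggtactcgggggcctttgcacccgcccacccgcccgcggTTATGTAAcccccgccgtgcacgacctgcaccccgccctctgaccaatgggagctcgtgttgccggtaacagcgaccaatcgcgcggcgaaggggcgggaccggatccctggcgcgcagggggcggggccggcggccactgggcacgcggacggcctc
A match describes the letters and does not show that a factor binds there. Ciart stood at 1.37, 1.91 and 0.449 CPM under LD16/8 and 0.350, 0 and 0.593 CPM under LD8/16, a low level at which its groups overlapped. The groups of Per3 did not overlap. Whether these letters bear on the levels was not tested.

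The 12 genes named as higher were next set against 2 comparisons that share no library with LD16/8 over LD8/16 in jejunum. Between constant light and constant darkness in jejunum, all 12 had a positive log2 fold change of LD24/0 over LD0/24, from 0.44 to 2.46 (median 1.34), and 0 passed. In that comparison 0 of 20339 genes passed (0%), 1069 had an unadjusted p under 0.05 (5.26%, with 2.32% higher and 2.94% lower), DESeq2 called 22, and 9754 genes were positive. Without LD0/24 replicate 3, 116 genes passed. The other 2 LD0/24 libraries held Paneth cell genes at a summed 5367 and 5009.95 CPM, against 115 to 1168 CPM in the other 10 jejunum libraries. They also had the lowest enterocyte sums of all jejunum libraries in the fit, at 26043 and 26773 CPM. The part of these 2 libraries in this comparison was not tested. Aldoc stood at 9.78, 9.79 and 10.6 CPM under LD24/0 and 3.10, 2.78 and 4.98 CPM under LD0/24 (1.48 ± 0.30, adjusted p = 0.699 with edgeR). Bbox1 stood at 38.2, 20.0 and 9.82 CPM under LD24/0 and 5.77, 5.46 and 1.09 CPM under LD0/24 (2.46 ± 0.60, adjusted p = 0.779). For both genes the groups did not overlap, and by mean LD16/8 was highest, then LD24/0, with LD0/24 and LD8/16 lowest. The summed level of the list for duodenum and proximal jejunum also differed without overlap. It stood at 3094, 3297 and 2823 CPM under LD24/0 and 1135, 1154 and 2496 CPM under LD0/24. The part of position along the bowel in this comparison was not tested. The genes named as lower had no common direction: 7 of 12 were positive in LD24/0 over LD0/24.

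In the ileum 2 of the 12 genes named as higher were positive in LD16/8 over LD8/16 (median −0.56). Of all 22173 genes, 10612 were positive. Mitochondrially encoded RNA took 4.83, 22.6 and 6.86% of ileum counts under LD16/8 and 8.74, 2.44 and 3.99% under LD8/16. Ileum LD16/8 replicate 2 was the lowest of its group for Dgat2, Mertk and Nat8f5, but not for Leap2 or Aldh4a1. Dgat2 in ileum stood at 167, 25.9 and 159 CPM under LD16/8 and 155, 179 and 134 CPM under LD8/16. The part of this library in the signs was not tested. With edgeR, 0 of 22173 genes passed in ileum (0%), and 919 had an unadjusted p under 0.05 (4.14%, with 2.89% higher and 1.25% lower). The difference of the 2 changes, jejunum minus ileum, was tested directly and 0 genes passed (0%). At an unadjusted p under 0.05 there were 934 (4.21%, with 2.48% positive and 1.74% negative), and DESeq2 called 44. A change particular to jejunum was therefore not shown for any gene. Bbox1 in ileum stood at 0.109, 0 and 1.11 CPM under LD16/8 and 0, 0.703 and 1.25 CPM under LD8/16, near absent in both, and its difference of changes was 5.62 ± 1.37 (adjusted p = 0.909 with edgeR). Nat8f2 and Slc22a13b also stayed low in ileum, at no more than 3.13 and 2.79 CPM under these 2 cycles. Leap2 in ileum stood at 22.0, 48.8 and 50.4 CPM under LD16/8 and 147, 94.3 and 112 CPM under LD8/16, and its difference of changes was 4.57 ± 1.13 (adjusted p = 0.909). Gsdmc3 had the smallest p of the test of the difference, −12.08 ± 2.28 (adjusted p = 0.435). In simulated libraries this test recovered 0 of 100 2-fold and 1 of 100 4-fold changes, so nearly all changes of these sizes were missed.

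**Figure D5:**
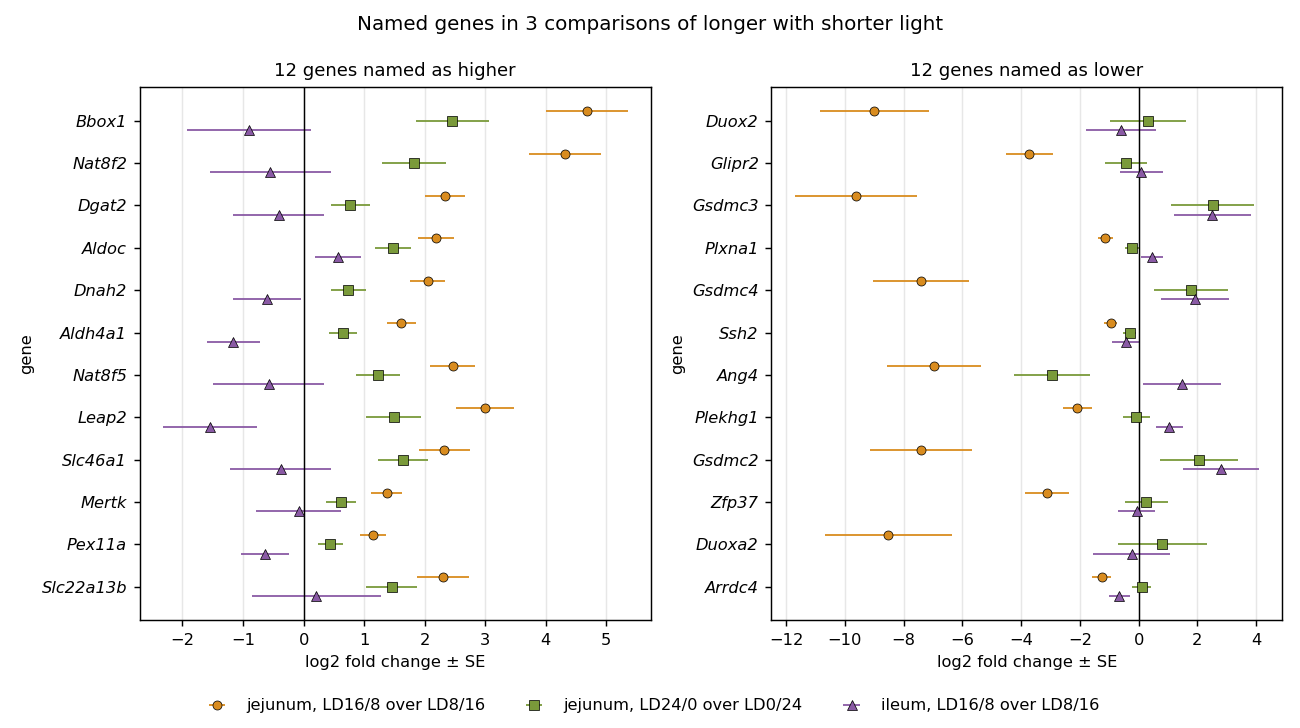
Log2 fold change ± SE of the 12 genes named as higher (left) and the 12 named as lower (right) in jejunum LD16/8 over LD8/16 (circles), jejunum LD24/0 over LD0/24 (squares) and ileum LD16/8 over LD8/16 (triangles). All 12 genes on the left are positive in both jejunum comparisons and 2 of them in ileum, and the genes on the right have no common direction outside LD16/8 over LD8/16 in jejunum.

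Genes that were all above under LD16/8 were more often higher in jejunum than in ileum, compared with all genes, though most of them were not. At LD0/24 and LD24/0, jejunum was higher than ileum for 1096 of 22173 genes (4.94%) and lower for 2390 (10.8%), together 15.7%. Of the 12 genes named as higher, 11 had a positive log2 difference of jejunum over ileum and 8 passed in that direction. Bbox1 differed by 5.19 ± 0.76 (adjusted p = 0.000639 with edgeR), Slc46a1 by 4.25 ± 0.67 (adjusted p = 0.00176) and Dnah2 by 2.16 ± 0.41 (adjusted p = 0.00419). Aldoc was the 1 that ran the other way, at −0.53 ± 0.27 (adjusted p = 0.178). Over all genes, jejunum was higher for 14.1% of the 1253 genes that were all above under LD16/8, for 2.38% of the 840 that were all below and for 5.39% of the 20319 genes in both fits. The 177 shared genes made up 16.2% of the genes higher in jejunum. Ileum was higher for 4.95% of the genes that were all above, for 6.07% of those all below and for 10.6% of all genes in both fits. Markers of position also differed among the 6 libraries. Pdx1, a factor of duodenum and pancreas, stood at 13.4, 7.82 and 3.05 CPM under LD16/8 and 0.0280, 1.72 and 0 CPM under LD8/16 (3.93 ± 1.33, adjusted p = 0.489), and Reg1, a secreted lectin of the upper bowel and pancreas, at 932, 643 and 447 CPM under LD16/8 and 84.1, 30.6 and 4.75 CPM under LD8/16 (4.08 ± 0.99, adjusted p = 0.305). Pancreatic enzyme genes such as Pnlip and Amy2a5 were at 0 in all 6 libraries. Of the 9 genes on the list for duodenum and proximal jejunum, 3 were all above and 0 all below, against 6.16% and 4.13% of all genes (median 1.03, summed level 3087 to 4085 CPM under LD16/8 and 1319.8 to 2096 CPM under LD8/16), while Gata4 had a log2 fold change of 0.03 ± 0.20. The summed level of the ileum list was also higher under LD16/8, at 3333 to 7330 CPM under LD16/8 and 2260 to 3304 CPM under LD8/16, while its 9 genes had a median log2 fold change of −0.51 with 1 all above and 1 all below. The part of the sampled position along the bowel in the differences between the cycles was not tested.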

How the data were processed

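RNA was extracted with TRIzol and made into libraries with a SMARTER mRNA kit, per the labels' protocols. The build GRCm39, StringTie 2.2.1, SAMtools 1.10 and HISAT2 2.1.0 are named in the submitters' processing notes. With strandedness not given in the sources used here, overlapping genes cannot be told apart. The deposited values are estimated counts per gene as whole numbers, in 1 table of 46333 rows. Of these, 2 rows name no gene (at most 0.0116% of a library) and were left out.

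Genes were tested with edgeR 4.0.16 in R 4.3.3: TMM scaling, filterByExpr, robust quasi-likelihood fitting of 1 mean for each cycle over 12 chow jejunum libraries, and Benjamini-Hochberg adjustment at 0.05 over 20339 genes. The difference between jejunum and ileum changes was tested in a joint fit of 24 libraries and 22173 genes. The comparison of jejunum with ileum at LD0/24 and LD24/0 in that fit was added after seeing the data. DESeq2 1.42.0 and limma 3.58.1 were alternatives, and the tests were checked on simulated data.

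The genes, 58 lists and comparisons were chosen with earlier results of these data known. Named genes are the 12 largest rises and falls that passed with a mean of at least 2 CPM and no overlap, filled up by smallest p, list members that passed, the 3 of smallest p and 2 of highest level in lists described, and clock genes; some items the rule names are not reported here. Predicted genes were counted only. Other members are named where a count needs them. Same-numbered replicates are unpaired in the labels. Promoters were matched by symbol to RefSeq (GRCm38.p6), and no coordinates of the submitters' build are given.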

Additional observations from a re-analysis of the deposited data

How the results depend on the processing

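The 12 genes named as higher and the 12 named as lower kept their direction under all 24 alternatives. Their choice by no overlap between the 2 groups largely fixed this in advance, so it is no support for them. The number of calls in jejunum LD16/8 over LD8/16 moved with most settings. Against 5 genes higher and 0 lower with edgeR, there were 8 higher with no filter on low counts, 135 higher and 34 lower with DESeq2, 0 higher with the older quasi-likelihood fit, 0 higher with the mitochondrial share as a covariate, 2 higher with only the 6 libraries, 3 higher with all 15 jejunum libraries and 0 higher with LD0/24 replicates 1 and 2 averaged, an alternative chosen after seeing the data. The fit of the 6 libraries and the averaged fit have fewer libraries; for the others the cause was not tested. Leaving out 1 library at a time gave 0 to 11 higher and 0 to 4 lower. DESeq2 called 22 genes in LD24/0 over LD0/24 and 44 in the difference between jejunum and ileum, each against 0 with edgeR, and leaving out 1 library gave 0 to 116 and 0 to 0 calls. Over these settings the adjusted p of Aldoc ran up to 0.243 and that of Dgat2 up to 0.362. On leaving out 1 library, the log2 fold change of Rora ran from −0.179 (without LD16/8 replicate 2) to 0.422 (without LD16/8 replicate 3) and that of Cry2 from −0.0904 (without LD16/8 replicate 3) to 0.881 (without LD16/8 replicate 2), so both reversed. The median log2 fold change of all genes was −0.04 with RLE size factors, against −0.07 with TMM, and ran from −0.09 to 0.02 on leaving out 1 library.

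With a replicate block in the fit, edgeR called 5 genes higher and 0 lower, 4 of them the same (Bbox1, Dgat2, Dnah2 and Nat8f2), and 0 in the other comparisons. Deviations of same-numbered libraries of the 2 cycles correlated at 0.182, 0.0045 and 0.027 across genes, against −0.136 to 0.0766 for pairs of unlike number. With 3 libraries in each cycle this cannot show whether the numbers pair the libraries. Each library held 86238027 estimated counts or more, but such totals do not show how many distinct RNAs were sampled. LD8/16 replicate 2, the highest library for many genes named as lower, had the fewest genes with at least 1 count (17303). With 3 libraries in each cycle, precision is limited.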

Other observations

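Brush-border and hormone genes that were on no list described above had separate values in the 2 cycles, none past the threshold. Tmprss15, the enteropeptidase that activates trypsin and is made in the upper bowel, stood at 57.8, 59.6 and 108 CPM under LD16/8 and 3.12, 15.2 and 0.174 CPM under LD8/16 (3.61 ± 1.48, adjusted p = 0.563 with edgeR). Mme, the membrane peptidase neprilysin, stood at 1537, 1318 and 1459 CPM under LD16/8 and 883, 1039 and 405 CPM under LD8/16 (0.89 ± 0.36, adjusted p = 0.553). The groups did not overlap for either, and 4 of 19 genes of peptide and amino acid absorption were all above, against 6.16% of all genes. Tph1, which makes serotonin in enteroendocrine cells, stood at 6.13, 7.57 and 7.19 CPM under LD16/8 and 4.47, 2.48 and 3.54 CPM under LD8/16 (0.98 ± 0.39, adjusted p = 0.543). Pyy, a satiety hormone of the lower bowel, stood at 0.0368, 0 and 0.0963 CPM under LD16/8 and 0.748, 0.240 and 4.14 CPM under LD8/16 (−5.15 ± 1.41, adjusted p = 0.35), all below at a low level. The enteroendocrine list had 1 of 15 genes all above and 1 all below, near the 6.16% and 4.13% of all genes, with 0 called. Insig1, which holds back cholesterol synthesis, stood at 153, 137 and 88.0 CPM under LD16/8 and 50.6, 56.5 and 30.7 CPM under LD8/16 (1.46 ± 0.37, adjusted p = 0.318), yet the 24 genes of cholesterol synthesis had a median of 0.05. Among 6 tested genes of red blood cells, 4 were all above, against 6.16% of all genes, and 0 had an unadjusted p under 0.05 with edgeR. The haemoglobin gene Hba-a1 stood at 25.6, 27.4 and 31.7 CPM under LD16/8 and 8.57, 13.9 and 8.97 CPM under LD8/16 (1.43 ± 0.83, adjusted p = 0.694).

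Outside the rule for named genes, and chosen after their values were seen, Nat8f3, another acetyltransferase of the Nat8 family, stood at 1.48, 1.20 and 1.17 CPM under LD16/8 and 0.154, 0.278 and 0.268 CPM under LD8/16 (2.52 ± 0.49, adjusted p = 0.213), and Slc6a3, the dopamine transporter, at 7.01, 11.6 and 9.66 CPM under LD16/8 and 0.895, 0.671 and 0.174 CPM under LD8/16 (3.97 ± 0.80, adjusted p = 0.237). Flvcr1, an exporter of haem, stood at 263, 254 and 251 CPM under LD16/8 and 92.1, 49.7 and 84.3 CPM under LD8/16 (1.76 ± 0.35, adjusted p = 0.213).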
